A study of Mus musculus with 4 samples.

Results

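The catecholamine genes described here were Th, Ddc, Dbh and Pnmt, which encode the enzymes of synthesis in their order, Gch1, which makes the cofactor of the opening step, Slc18a2, the vesicular monoamine transporter, Slc6a2, the noradrenaline reuptake transporter, and Maoa, a monoamine-degrading enzyme. They were chosen by name for these roles and are 8 of the 32285 genes counted. Their levels were read in single-nucleus RNA libraries from the mouse posterior hindbrain, the block of tissue that holds the area postrema (AP) and the nucleus of the solitary tract (NTS). The nuclei kept by the authors numbered 39461, of which 12539 were neurons in 134 clusters, and the nuclei fell into 14 annotated cell types.

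The study asked how hunger-promoting AgRP neurons and satiety-promoting POMC neurons of the hypothalamus act together on feeding and metabolism. These libraries were made to describe the hindbrain cells that respond to both. There were 4 libraries, 2 per group. AgRP-Gq;POMC-Gi mice carried AgRP-IRES-Cre+/- with hM3DGqfl/-, so that Cre turned on this activating receptor in AgRP neurons, and also POMC-Dre+/- with hM4DGifl/-, so that Dre turned on this inhibiting receptor in POMC neurons. The control mice were labelled wild type, and by the study's breeding scheme they lacked both recombinases and carried both receptor alleles. All mice of both groups received clozapine-N-oxide (CNO), the ligand of these receptors, at 3 mg per kg intraperitoneally. The mice were killed 1 h later, in the absence of food. They were adults of 12 to 20 weeks and of both sexes. The study's methods give 2 mice per group and speak of pooling within a condition, and the labels do not tie a library to a mouse, so the spread between libraries may be partly technical. The study checked recombinase and receptor expression in AgRP and POMC neurons of the hypothalamus, and the cells profiled here lay in the hindbrain. Whether any profiled cell carried a receptor was not tested.

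The libraries held 48904976 to 53089402 UMIs (unique molecular identifiers, 1 per captured RNA molecule) in the kept nuclei, and the median neuron held 8252 to 9623.5 UMIs. The share of neurons among the nuclei was lower in the controls (25.4% and 27.2%) than with AgRP-Gq;POMC-Gi (38.0% and 36.5%). Between 19 and 36 barcodes were shared by any pair of libraries. AgRP-Gq;POMC-Gi replicate 2 stood apart in Xist, the RNA of the inactive X chromosome, at 16.2 CPM (the counts of a gene scaled to 1e+06 UMIs) in neurons against 319 to 541 CPM in the other 3 libraries. Xist is a marker of female cells, so the 2 libraries of that group did not hold the same mix of sexes. The part of sex in the values below was not tested. Choroid plexus nuclei numbered 436 and 329 in control replicate 2 and AgRP-Gq;POMC-Gi replicate 2 and 2 and 6 in the others. Values per library are given below in the order control replicates 1 and 2, then AgRP-Gq;POMC-Gi replicates 1 and 2, as CPM over the summed UMIs of the nuclei concerned.

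Catecholamine neurons turn tyrosine into L-DOPA with tyrosine hydroxylase (Th) and L-DOPA into dopamine with aromatic L-amino acid decarboxylase (Ddc). Dopamine beta-hydroxylase (Dbh), which sits inside vesicles, makes noradrenaline, and phenylethanolamine N-methyltransferase (Pnmt) makes adrenaline. A cell that holds the whole chain up to Dbh has the enzymes for noradrenaline, and Pnmt sets an adrenergic cell apart. The NTS and AP are known for noradrenergic neurons, which take part in feeding and visceral reflexes. Ddc, Gch1, Slc18a2 and Maoa are shared with serotonin neurons, which use the same decarboxylase, cofactor and vesicular transporter.

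The promoters of the genes are shown because several members were high in the same clusters. RefSeq promoter windows of GRCm38.p6 matched 6 of the 8 members, in 7 windows since Ddc has 2 start sites. The stretches below run from 250 bases before the start site to 10 after it for the entry gene of the chain, both starts of the decarboxylase, the noradrenergic gene and the vesicular transporter. Capitals mark TGACGTCA, the cyclic AMP response element (CRE), and TAAT or its reverse complement ATTA, the core bound by many homeodomain factors.
Th (chr7:142899986-142900245, minus strand): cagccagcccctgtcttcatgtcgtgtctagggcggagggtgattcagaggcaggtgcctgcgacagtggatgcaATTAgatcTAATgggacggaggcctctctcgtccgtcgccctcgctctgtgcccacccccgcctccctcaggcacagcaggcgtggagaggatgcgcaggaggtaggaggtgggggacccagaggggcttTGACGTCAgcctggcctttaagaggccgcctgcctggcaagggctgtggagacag
Ddc, upstream start (chr11:11898135-11898394, minus strand): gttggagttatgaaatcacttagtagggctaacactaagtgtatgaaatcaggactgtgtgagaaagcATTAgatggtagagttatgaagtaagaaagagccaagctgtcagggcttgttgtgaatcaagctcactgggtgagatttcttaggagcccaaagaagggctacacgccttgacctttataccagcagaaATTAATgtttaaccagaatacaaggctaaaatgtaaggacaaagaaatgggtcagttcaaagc
Ddc, downstream start (chr11:11890399-11890658, minus strand): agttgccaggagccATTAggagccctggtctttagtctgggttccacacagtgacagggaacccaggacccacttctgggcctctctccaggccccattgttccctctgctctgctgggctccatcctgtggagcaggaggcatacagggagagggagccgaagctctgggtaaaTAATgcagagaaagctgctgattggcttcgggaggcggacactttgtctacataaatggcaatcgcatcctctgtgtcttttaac
Dbh (chr2:27165257-27165516, plus strand): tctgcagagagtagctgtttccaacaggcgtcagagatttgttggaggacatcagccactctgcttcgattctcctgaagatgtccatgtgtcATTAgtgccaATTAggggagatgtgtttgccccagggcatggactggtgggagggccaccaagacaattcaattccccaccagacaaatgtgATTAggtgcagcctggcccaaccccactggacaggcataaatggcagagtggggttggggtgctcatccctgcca
Slc18a2 (chr19:59260628-59260887, plus strand): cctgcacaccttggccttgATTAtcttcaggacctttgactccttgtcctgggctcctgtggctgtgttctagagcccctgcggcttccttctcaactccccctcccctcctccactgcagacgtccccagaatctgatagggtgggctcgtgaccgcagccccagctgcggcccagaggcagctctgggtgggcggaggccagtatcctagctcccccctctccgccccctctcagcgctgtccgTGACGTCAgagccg

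The CRE stood at -45 to -38 in Th and at -4 to 4 across the start site of Slc18a2, counted from the start site with no position zero. It was searched on both strands of 300-base windows and was present in 2 of the 7 member windows and in 1.79% of 32851 promoter windows. The TAAT core was present in 5 of the 7 member windows and in 58.0% of all windows, so its presence was common. Dbh held 3 ATTA cores, at -157, -147 and -65, and in the upstream Ddc window 2 cores overlapped as ATTAAT. A letter match is a description and not a measured binding site, and 3-prime counts do not tell which Ddc start site was used.

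By the rule below the full chain from Th to Dbh was read in 2 neuronal clusters. A cluster was said to hold a step where at least 20% of its nuclei had a UMI of the gene, its mean CPM was at least 4-fold that of all other neurons, and every library had a UMI. The rule gave 20 pairs of cluster and step in 7 of the 134 clusters, and 127 clusters held none. Clusters are given by the authors' numbers, with their marker names for some. Cluster 76 (120 nuclei) held 6 steps, namely Th, Ddc, Dbh, Gch1, Slc18a2 and Maoa. Cluster 97 (Gfral/Sctr, 101 nuclei) held 5, the same without Slc18a2. Cluster 159 (Casr/Slc6a2, 50 nuclei) held Ddc, Dbh and Slc6a2. Cluster 167 (Tph2/Slc6a4, 43 nuclei) held Ddc, Gch1 and Slc18a2. Clusters 63 (Ebf2/Th, 139 nuclei) and 146 (Rxfp1/Ebf2, 58 nuclei) held Th alone, and cluster 168 (Rspo2/Ntng1, 43 nuclei) held Ddc alone. Since clusters are built from expression, a cluster set against other neurons is a description and carries no test. The counts depended on the limits of the rule. With a minimum share of 30% of nuclei there were 14 pairs in 6 clusters, where Th was held in cluster 63 alone, Dbh in clusters 76 and 159 and Gch1 in cluster 167 alone, so that no cluster held Th, Ddc and Dbh together. With a minimum of 10% there were 22 pairs in 9 clusters, clusters 38 and 125 also holding Th. At 2-fold there were 29 pairs in 15 clusters, with Ddc and Maoa held in 8 clusters each, and at 8-fold 17 pairs in 6 clusters. With every nucleus thinned to 2000 UMIs, only 6 of the 20 pairs were held, because shares of nuclei with a UMI fall with depth.

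Steps near the limit of the rule turned on single libraries. Without control replicate 1, cluster 76 no longer held Th, Gch1 or Slc18a2, while cluster 159 held Gch1, cluster 167 held Maoa and cluster 116 held Ddc, which made 8 clusters with a step. Without control replicate 2, cluster 97 no longer held Th. Without AgRP-Gq;POMC-Gi replicate 1, cluster 76 did not hold Th and cluster 97 did not hold Dbh, so that no cluster held the full chain. Leaving out AgRP-Gq;POMC-Gi replicate 2 took Slc18a2 from cluster 76 and added Maoa to cluster 167. Whichever library was left out, Ddc was held in its 5 clusters, Th in clusters 63 and 146, Dbh in clusters 76 and 159, Gch1 in clusters 97 and 167, Slc18a2 in cluster 167, Slc6a2 in cluster 159 and Maoa in clusters 76 and 97.

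**Figure D1:**
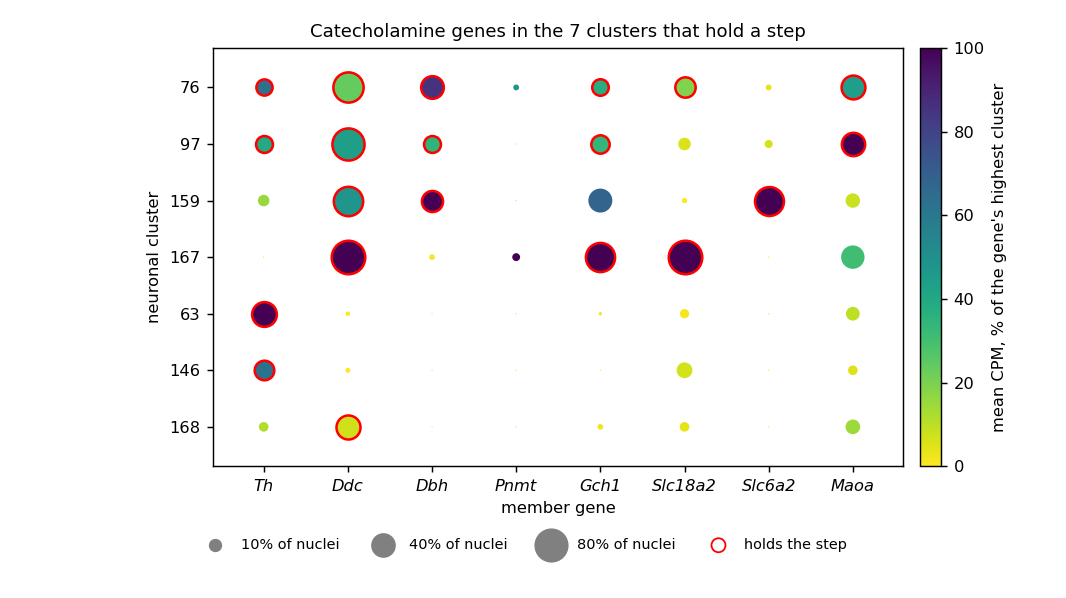
Members (horizontal) in the 7 neuronal clusters that hold a step (vertical). Dot size is the percentage of nuclei with a UMI, colour is the level as a percentage of the gene's highest cluster, and a red ring marks a held step. Cluster 76 has 6 rings and cluster 97 has 5, and clusters 63 and 146 have a ring for Th alone.

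Th (chromosome 7, 142892752 to 142931128, minus strand, GRCm38) was a gene of few neurons. This GENCODE span begins upstream of the RefSeq start site whose promoter is printed above, so the sources differ in the start. Th had 426 UMIs in 284 neurons, 2.26% of all, and 79 clusters had no Th UMI. Its highest level was in cluster 63, at 62.6, 112, 128 and 124 CPM by library, a mean of 107 ± 30.4 CPM (SD, n = 4). A UMI was found in 46.8% of the nuclei of this cluster (exact Clopper-Pearson 95% interval 38.3 to 55.4%, counting error only), 41.5-fold the level of other neurons. In the plot by library control replicate 1 was the low one in this cluster and the other 3 lay close together. Cluster 76 held 119, 59.7, 43.5 and 46.8 CPM, with a mean of 67.2 ± 35.1 CPM (SD, n = 4). Here control replicate 1 was the high library, on 13 nuclei, and 20.0% of nuclei had a UMI, just at the limit of the rule. Cluster 146 held 35.6, 60.9, 63.6 and 108 CPM, a mean of 67.0 ± 30.0 CPM (SD, n = 4). Cluster 97 held 29.5, 73.1, 27.5 and 38.8 CPM, a mean of 42.2 ± 21.2 CPM (SD, n = 4). The ranges of clusters 76, 146 and 97 overlapped, so these 3 had no order beyond their spread, and the range of cluster 63 overlapped those of all 3. The 4 clusters held 52.8% of the Th UMIs of neurons. Cluster 38 (Kcnh8/Maf) was just outside the rule with Th in 18.0% of nuclei. Cluster 159 had Th in 10.0% of nuclei and in only 2 of the 4 libraries, and cluster 167 had none.

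Ddc (chromosome 11, 11814101 to 11898144, minus strand) reached more cells. It had 1704 UMIs in 605 neurons, 4.82% of all. Cluster 167 was highest with 1008, 649, 1282 and 869 CPM, a mean of 952 ± 265 CPM (SD, n = 4), and 86.0% of its nuclei had a UMI. Its 4 libraries all lay above those of the clusters below except that control replicate 2 fell under control replicate 1 of cluster 159. Cluster 159 held 718, 375, 367 and 361 CPM, where the high value came from 3 nuclei. Cluster 97 held 428, 439, 461 and 339 CPM, which could not be separated from cluster 159 by its spread. Cluster 76 held 201, 243, 225 and 226 CPM, a mean of 224 ± 17.6 CPM (SD, n = 4), below every library of clusters 97, 159 and 167. Cluster 168 followed at 54.0, 62.4, 78.1 and 77.4 CPM, below every library of cluster 76. Ddc was nearly missing from the Th clusters named for Ebf2, with 2 UMIs in cluster 63 and 1 UMI in cluster 146.

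Dbh (chromosome 2, 27165233 to 27183200, plus strand) was the most confined of the synthesis genes that could be read. It had 178 UMIs in 127 neurons, 1.01% of all, and 110 clusters had none. Cluster 159 held 120, 93.8, 70.2 and 68.8 CPM from 1, 3, 9 and 12 UMIs, a mean of 88.1 ± 23.9 CPM (SD, n = 4). Cluster 76 held 126, 45.9, 89.6 and 39.0 CPM from 17, 10, 33 and 15 UMIs, a mean of 75.2 ± 40.8 CPM (SD, n = 4). Cluster 97 held 14.8, 21.9, 51.9 and 35.3 CPM from 1, 3, 17 and 10 UMIs, a mean of 31.0 ± 16.3 CPM (SD, n = 4). The libraries of clusters 159 and 76 overlapped, every library of cluster 97 lay below every library of cluster 159, and clusters 76 and 97 overlapped. These 3 clusters held 73.6% of the Dbh UMIs of neurons. Clusters 63 and 146 had no Dbh UMI, which in cluster 63, by the 3-count limit, allows a Dbh UMI in up to 2.16% of nuclei. This bounds nuclei with a UMI and not nuclei that express the gene. Oligodendrocytes, which do not make noradrenaline, had a Dbh UMI in 0.119% of nuclei at a median depth of 2460 UMIs, against a median of 8704 UMIs in neurons.

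Pnmt (chromosome 11, 98386450 to 98388181, plus strand) was close to undetected. Neurons held 3, 2, 8 and 0 UMIs by library, 13 UMIs in 11 nuclei, and 126 clusters had none. Cluster 76 had 5 of these UMIs, in 3 nuclei and all in AgRP-Gq;POMC-Gi replicate 1. Cluster 167 had 2 UMIs and cluster 145 had 1. No cluster held the step, and at this depth neither its presence nor its absence could be read in a cluster.

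Gch1 (chromosome 14, 47153895 to 47189413, minus strand) encodes GTP cyclohydrolase 1 and was held in 3 of the 5 clusters that held Ddc. It had 255 UMIs in 174 neurons, 1.39% of all. Cluster 167 held 136, 54.1, 123 and 137 CPM, a mean of 112 ± 39.4 CPM (SD, n = 4), with control replicate 2 the low library on 5 nuclei. Cluster 76 held 52.0, 27.5, 46.2 and 44.2 CPM, a mean of 42.5 ± 10.5 CPM (SD, n = 4), and cluster 97 held 29.5, 36.6, 45.8 and 42.4 CPM, a mean of 38.6 ± 7.12 CPM (SD, n = 4). Clusters 76 and 97 overlapped. Cluster 159 had 0, 125, 78.0 and 103 CPM, 44.0% of its nuclei had a UMI, and it missed the rule only because the 3 nuclei of control replicate 1 held none. Clusters 63 and 146 had 1 UMI and no UMI.

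**Figure D2:**
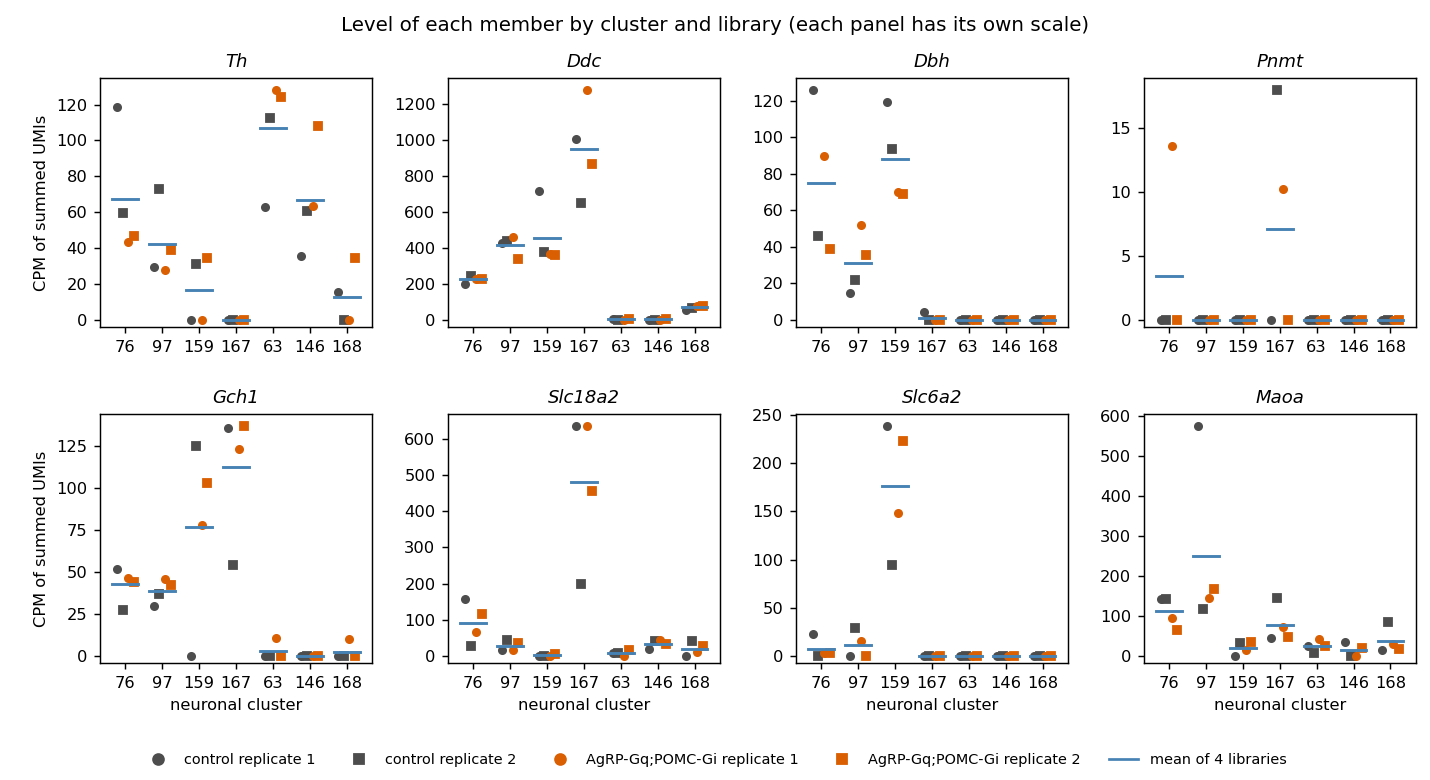
CPM of each member (panels, each with its own vertical axis) in the 7 clusters that hold a step, with 1 point per library coloured by group and a line at the mean of 4 libraries. Th spans 62.6 to 128 CPM in cluster 63, Dbh is listed at 0 in clusters 63, 146 and 168, and Slc6a2 spans 93.8 to 239 CPM in cluster 159.

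Slc18a2 (chromosome 19, 59260896 to 59296012, plus strand) was read in most clusters at a low level. It had a UMI in 2087 neurons, 16.6% of all, and in 133 of the 134 clusters, with a median of 19.5 CPM over clusters. The part of stray RNA from other cells in these low levels was not tested. With nuclei thinned to 800 UMIs the share of neurons with a UMI was 1.41%, against 0.827% of oligodendrocytes. Cluster 167 stood far above, at 638, 198, 636 and 457 CPM, a mean of 482 ± 207 CPM (SD, n = 4), and 86.0% of its nuclei had a UMI. Cluster 76 held 156, 27.5, 65.2 and 114 CPM, a mean of 90.8 ± 56.2 CPM (SD, n = 4), just inside the rule at 4.04-fold. Control replicate 2 lay near the median of all clusters there. Cluster 166 (Otof/Hpse2) followed at 51.3 CPM on 7 UMIs. Cluster 97 had 27.3 CPM on average, 1.19-fold the level of other neurons, although it held Th, Ddc and Dbh. Cluster 159 had 1 UMI in 50 nuclei, rank 133 of 134 clusters. Cluster 63 had 7.52 CPM, 0.325-fold the level of other neurons. Of the 5 clusters holding Th or Dbh, cluster 76 was by this rule the only one that also held the vesicular transporter.

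Slc6a2 (chromosome 8, 92960079 to 93001667, plus strand) belonged mainly to cluster 159. That cluster held 239, 93.8, 148 and 224 CPM from 2, 3, 19 and 39 UMIs, a mean of 176 ± 67.8 CPM (SD, n = 4), 380-fold the level of other neurons. Of its nuclei 64.0% had a UMI (95% interval 49.2 to 77.1%), and 51.6% of the Slc6a2 UMIs of neurons were there. Cluster 99 came next with 17.6 ± 12.1 CPM (SD, n = 4), below every library of cluster 159. Cluster 97 had a UMI in 4.95% and cluster 76 in 2.50% of nuclei, and clusters 63, 146, 167 and 168 had no Slc6a2 UMI. The 2 clusters with Th, Ddc and Dbh therefore had little reuptake transporter RNA, and the cluster with most of it had Th in 10.0% of nuclei.

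Maoa (chromosome X, 16619698 to 16687818, plus strand) was found in all 134 clusters, with a median of 16.3 CPM. Cluster 97 was highest, at 576, 117, 143 and 166 CPM, a mean of 251 ± 218 CPM (SD, n = 4). The value of control replicate 1 came from 39 UMIs in 3 nuclei, and the other 3 libraries lay between 117 and 166 CPM. Cluster 76 held 141, 142, 95.1 and 65.0 CPM, a mean of 111 ± 37.7 CPM (SD, n = 4). Cluster 167 had a UMI in 41.9% of nuclei and was just outside the rule at 3.95-fold. Cluster 159 had 20.3 CPM, 1.04-fold the level of other neurons, and cluster 63 had 24.8 CPM.

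Single nuclei were counted from the same UMIs as the rule, so these counts are no separate support for it. A UMI is caught only from some transcripts. Brackets give the nuclei that 2 genes would share if they fell independently within the cluster. In cluster 76, 36 of 120 nuclei had both Ddc and Dbh (32.9), 14 had both Th and Dbh (9.40), and 9 had all 3. In the same cluster 23 nuclei had a UMI of at least 4 members. In cluster 97, 18 of 101 nuclei had Ddc and Dbh (17.4) and 4 had all 3. In cluster 159, 12 of 50 nuclei had Dbh and Slc6a2 (10.9), 2 had Th and Dbh (1.70), and 2 had Th, Ddc and Dbh. In cluster 63, 65 nuclei had Th, 2 of them also had Ddc (0.935) and none had Dbh. In cluster 167, 36 of 43 nuclei had Ddc and Slc18a2 (31.8) and none had Th. Shares at an equal depth of 2000 UMIs per nucleus were, for Ddc, 73.7%, 48.5%, 46.8% and 29.1% in clusters 167, 97, 159 and 76. For Dbh they were 8.51%, 7.69% and 8.08% in clusters 159, 76 and 97, and for Slc6a2 34.0% in cluster 159. Over all neurons, 60.6% of the nuclei with Dbh also had Ddc and 19.7% also had Th.

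The other markers of these clusters were read from fixed lists. Serotonin markers marked cluster 167, with Tph2, the neuronal tryptophan hydroxylase, at 1341 CPM and Slc6a4, the serotonin transporter, at 663 CPM on average, and 3 of 3 markers were at least 4-fold above other neurons. In cluster 159 the astrocyte markers Aqp4 and Slc1a3 were at 21.0 and 47.0 CPM, and 2 of 3 of that list were at 4-fold. The summed list was at 120, 125, 15.6 and 22.9 CPM by library, on 3, 5, 18 and 24 nuclei. The summed neuronal list (Rbfox3, Snap25, Syt1) ranged there from 2678 to 3708 CPM, against 799.5 to 5424 CPM over the libraries of the other 6 clusters. Within it Rbfox3 was at 13.4 CPM, below the 78.0 to 475 CPM of the other 6 clusters, and Syt1 was at 2689 CPM, 2.00-fold the level of other neurons. Of the serotonin markers Tph2 was at 4.16-fold in cluster 159 on 6 UMIs. The part of astrocyte RNA in the values of cluster 159 was not tested. In cluster 76 both endothelial markers, Flt1 and Cldn5, were at 4-fold on 10 and 6 UMIs, and the summed list ranged from 5.43 to 44.6 CPM over libraries. Its part in the Ddc, Gch1 and Maoa values of cluster 76 was not tested. In cluster 146 Mog, 1 of the 3 oligodendrocyte markers, was at 4.34-fold on 12 UMIs, and the summed list ranged from 159 to 812 CPM, against 117 to 657 CPM over the libraries of the other 6 clusters. The part of oligodendrocyte RNA in the Th values of cluster 146 was not tested, and Th had a UMI in 0.0476% of oligodendrocytes. No marker of precursors, microglia, cholinergic or histamine neurons was at 4-fold in the 7 clusters. Slc17a6, the vesicular glutamate transporter, chosen after its values were seen, ran from 96.0 to 225 CPM in the 6 clusters other than 167 and was at 2.99 CPM in cluster 167.

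Of 26 other genes of the pathway in 6 lists, 12 were at least 4-fold above other neurons in at least 1 of the 5 clusters that held Th or Dbh. Among the lineage factors, Tfap2b, the AP-2 beta factor, was at 132 ± 25.5, 130 ± 63.0 and 134 ± 99.9 CPM (SD, n = 4) in clusters 76, 97 and 159. Control replicate 1 of cluster 159 had no Tfap2b UMI. Ebf2 was at 965 ± 154 CPM (SD, n = 4) in cluster 63 and 1289 ± 212 CPM (SD, n = 4) in cluster 146. Neither gene was particular to these clusters, since the authors' names of clusters without a step, such as 41 (Ryr1/Tfap2b) and 40 (Ebf2/Ankfn1), also hold them. Lmx1b, a LIM homeodomain factor, was at 4-fold in all 5, from 65.9 to 115 CPM. This rested on single libraries in cluster 159, where it was 1.99-fold without AgRP-Gq;POMC-Gi replicate 1, and in cluster 76, where it was 3.73-fold without control replicate 1 and 3.83-fold without AgRP-Gq;POMC-Gi replicate 1. Phox2a rested on 10 UMIs in cluster 76. Among the genes of release control, Drd2, the D2 dopamine receptor, was at 65.0 ± 19.6 CPM (SD, n = 4) in cluster 63, with a UMI in 29.5% of nuclei, and Npy, a co-transmitter, reached 52.9 CPM in cluster 76. In cluster 97 it was at 23.6 CPM on 10 UMIs and fell to 6.83 CPM without control replicate 1, below 4-fold. The remaining genes at 4-fold were Cyb561, Slc18a1 and Spr in cluster 159, Pcbd1 in clusters 76 and 159, and Slc22a3 in cluster 76. Slc18a1 and Spr rested on 4 and 9 UMIs and were at 0.749-fold and 1.48-fold without control replicate 2. In cluster 76, Pcbd1 and Slc22a3 were at 3.27-fold and 3.81-fold without control replicate 1, and Slc22a3 was at 3.88-fold without AgRP-Gq;POMC-Gi replicate 2. The dopamine transporter gene Slc6a3 had no UMI in any of the 7 clusters.

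By likeness of pattern over the 120 neuronal clusters whose libraries all had 5 nuclei or more, some members had another member among the 3 genes most like them. The measure was Pearson's r of log2(mean CPM + 1) over these clusters, which share libraries and depth, among 17236 genes. Cluster 159, with 3 nuclei in control replicate 1, was not among them. The likeness of Slc6a2 and Dbh therefore leaves out the cluster where both had their highest mean CPM. By mean log-normalized value Dbh was highest in cluster 76. For Ddc the most alike were 1700042O10Rik (r = 0.86) and Gch1 (r = 0.64). For Gch1 they were Ddc (r = 0.64), 1700042O10Rik (r = 0.62) and Gm11650 (r = 0.58). For Dbh they were Ddc (r = 0.58), D630024D03Rik (r = 0.55) and 1700042O10Rik (r = 0.54). For Slc6a2 they were Dpy19l2 (r = 0.41), Dbh (r = 0.40) and Gm12132 (r = 0.40). Th had no other member near it, with Tbl1x (r = 0.50), Cngb1 (r = 0.45) and Pi16 (r = 0.41). Slc18a2 was closest to Notch4 (r = 0.51), Slc6a4 (r = 0.49) and Tph2 (r = 0.47), and Maoa to Nucb2 (r = 0.70), Celf5 (r = 0.63) and Gnb2 (r = 0.62). Pnmt, on 13 UMIs, was closest to Slc6a4 (r = 0.57), Gch1 (r = 0.53) and Slc22a3 (r = 0.51). Of the 24 genes ranked in the top 3 of a member, 18 were among the 10 most alike when the controls alone were used and 16 when the other group alone was used.

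Outside neurons Th, Dbh, Slc6a2 and Pnmt had few UMIs, while Ddc, Gch1, Slc18a2 and Maoa were read in several types. Endothelial cells (789 nuclei) had Ddc, Gch1 and Maoa above the level of neurons. Their Ddc level was 185, 147, 134 and 81.6 CPM, a mean of 137 ± 42.8 CPM (SD, n = 4), against 13.6 ± 3.40 CPM (SD, n = 4) over all neurons. Their Gch1 level was 158, 109, 175 and 143 CPM, a mean of 146 ± 27.8 CPM (SD, n = 4), against 2.00 ± 0.545 CPM (SD, n = 4) in neurons. Their Maoa level was 180, 119, 233 and 195 CPM, a mean of 182 ± 47.6 CPM (SD, n = 4), against 19.5 ± 1.59 CPM (SD, n = 4) in neurons. For all 3 genes every endothelial library lay above every neuronal one. Of endothelial nuclei 16.2% had a UMI of Ddc, 18.5% of Gch1 and 22.7% of Maoa, and Th, Dbh and Slc6a2 had 2, 1 and 4 UMIs there.

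Oligodendrocytes also had Ddc, at 66.4, 46.2, 36.0 and 35.7 CPM, a mean of 46.1 ± 14.4 CPM (SD, n = 4), with a UMI in 1710 of 16816 nuclei, 10.2%. The level ran from 10.4 to 82.1 CPM over their 13 clusters. Their Gch1 level was 0.499 CPM and their Th share 0.0476% of nuclei, so Ddc stood there with almost no Th or Gch1. Maoa was at 53.9 ± 9.38 CPM (SD, n = 4) in astrocytes, above every neuronal library. Gch1 was at 83.3 ± 65.8 CPM (SD, n = 4) in the Ms4a4b.Immune type on 61 nuclei, at 39.4 ± 20.5 CPM (SD, n = 4) in F13a1.Immune and at 16.0 ± 12.8 CPM (SD, n = 4) in Tmem119.Immune. Slc18a2 was at 46.0, 24.8, 44.8 and 35.0 CPM in Tmem119.Immune cells, which carry a microglial marker in their name, against 23.0 ± 3.64 CPM (SD, n = 4) in neurons. Th, Dbh, Slc6a2 and Pnmt had at most 8, 20, 11 and 3 UMIs in any type other than neurons.

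**Figure D3:**
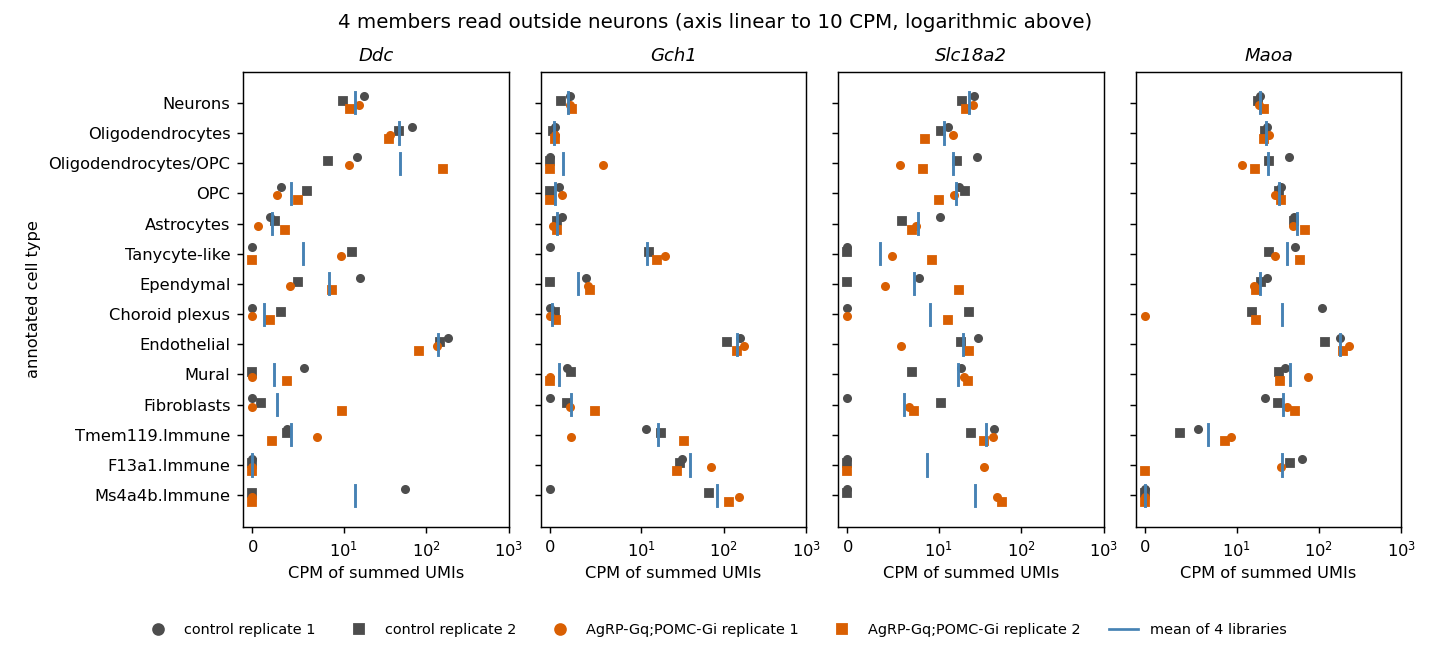
CPM of Ddc, Gch1, Slc18a2 and Maoa (panels) on horizontal axes that are linear up to 10 CPM and logarithmic above, in the 14 annotated cell types (vertical), with 1 point per library coloured by group and a line at the mean of 4 libraries. Endothelial points lie at 81.6 to 185 CPM for Ddc and 119 to 233 CPM for Maoa, and oligodendrocyte points at 35.7 to 66.4 CPM for Ddc.

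The gene with the pattern most like Ddc was its antisense partner. 1700042O10Rik lies at chromosome 11, 11868123 to 11885321, on the plus strand, wholly inside Ddc, which is on the minus strand. It had 2310 UMIs in neurons beside 1704 of Ddc, 1.36 per Ddc UMI, and 2880 beside 2226 in oligodendrocytes, 1.29 per Ddc UMI. The ratio in clusters 76, 97, 159 and 167 was 1.46, 1.21, 1.17 and 1.57. Endothelial cells had 178 beside 182, 0.978 per Ddc UMI. Astrocytes had 9 beside 35, and cluster 63 had 1 beside 2. Of the 605 neurons with Ddc, 370 also had the antisense gene, and in cluster 167 all 37 Ddc nuclei had it. Whether the counting used strand was not stated in the sources used here, so the division of reads between both genes is uncertain, and the levels of Ddc above are those of the deposited counts.

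**Figure D4:**
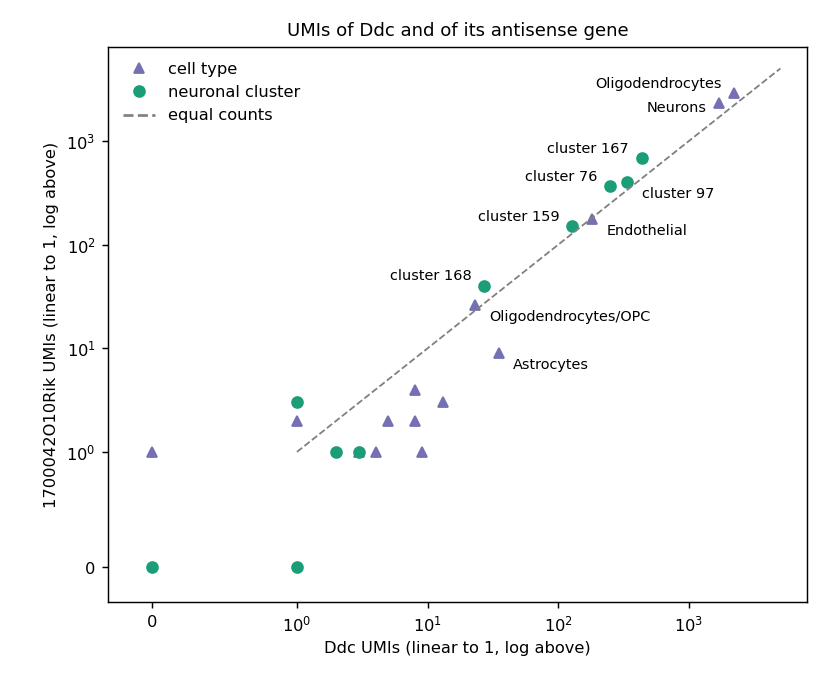
UMIs of the antisense gene 1700042O10Rik (vertical) against UMIs of Ddc (horizontal), both on axes that are linear up to 1 and logarithmic above, with 1 point per cell type or named neuronal cluster and a dashed line where both are equal. Neurons (1704 and 2310 UMIs) and oligodendrocytes (2226 and 2880 UMIs) lie above the line, and astrocytes (35 and 9 UMIs) below it.

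Between AgRP-Gq;POMC-Gi and control libraries, no member passed the test at an adjusted p of 0.05 (edgeR's quasi-likelihood test, Benjamini-Hochberg adjustment over all genes). In all neurons 7 members were tested and 0 were called, against 0.00472% of the 21200 genes tested. At an unadjusted p under 0.05 there were 2 of 7, against 5.51% of all genes. With 2 libraries against 2, an exact two-sided permutation test of a single value cannot go below 0.333.

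Dbh and Slc6a2 were these 2 members. Dbh was at 1.15, 0.729, 2.00 and 1.59 CPM over all neurons, and the controls lay below the other 2 libraries. Its log2 fold change was 0.99 (SE 0.32, edgeR unadjusted p = 0.014, adjusted p = 0.847). Slc6a2 was at 0.298, 0.693, 1.18 and 1.50 CPM, again without overlap, with a log2 fold change of 1.48 (SE 0.40, edgeR unadjusted p = 0.00605, adjusted p = 0.847). With the replicate number as a block, to which the labels give no meaning, Slc6a2 was called, in a fit that called 1.02% of all genes tested. When AgRP-Gq;POMC-Gi replicate 2 was left out, the edgeR adjusted p of Dbh was 0.0286, in a fit that takes the spread from the 2 controls alone and that called 12.5% of all genes tested. Of all genes tested 11.7% were higher in both AgRP-Gq;POMC-Gi libraries and 25.2% were lower in both. The 5 other members had log2 fold changes of 0.48 (SE 0.32) for Th, 0.07 (SE 0.26) for Ddc, 0.50 (SE 0.30) for Gch1, 0.11 (SE 0.18) for Slc18a2 and 0.17 (SE 0.10) for Maoa. Th was at 3.05, 2.62, 2.44 and 5.24 CPM, where AgRP-Gq;POMC-Gi replicate 2 alone was high and the groups overlapped. That library also had 71 of the 139 nuclei of cluster 63 and was the one with low Xist.

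The share of neurons in the clusters that held Dbh or Slc6a2 was higher in the same libraries, and the level inside those clusters overlapped between groups. The 3 clusters that held Dbh made up 0.931%, 1.68%, 2.73% and 2.78% of neurons, higher in both AgRP-Gq;POMC-Gi libraries. The same was true of 33 of all 134 neuronal clusters taken singly (24.6%), and 18 (13.4%) had a lower share in both. Inside them Dbh was at 90.2, 41.4, 71.6 and 43.9 CPM. In all other neurons it was at 0.450, 0.148, 0.345 and 0.552 CPM. Cluster 159, which held Slc6a2, made up 0.121%, 0.183%, 0.487% and 0.660% of neurons and was 1 of those 33, while Slc6a2 inside it was at 239, 93.8, 148 and 224 CPM. The log2 fold change of its share of neurons was 1.88 (SE 0.73, edgeR unadjusted p = 0.0309, adjusted p = 0.591). For the number of nuclei 0 of 134 clusters were called (0%), and 8 had an unadjusted p under 0.05 (5.97%). The log2 fold changes of the other clusters that held a step were 1.20 (SE 0.53) for cluster 97, 0.68 (SE 0.47) for cluster 76, 0.77 for cluster 146, 0.28 for cluster 63, 0.24 for cluster 168 and -1.27 (SE 0.88) for cluster 167. The part of dissection in these shares was not tested.

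**Figure D5:**
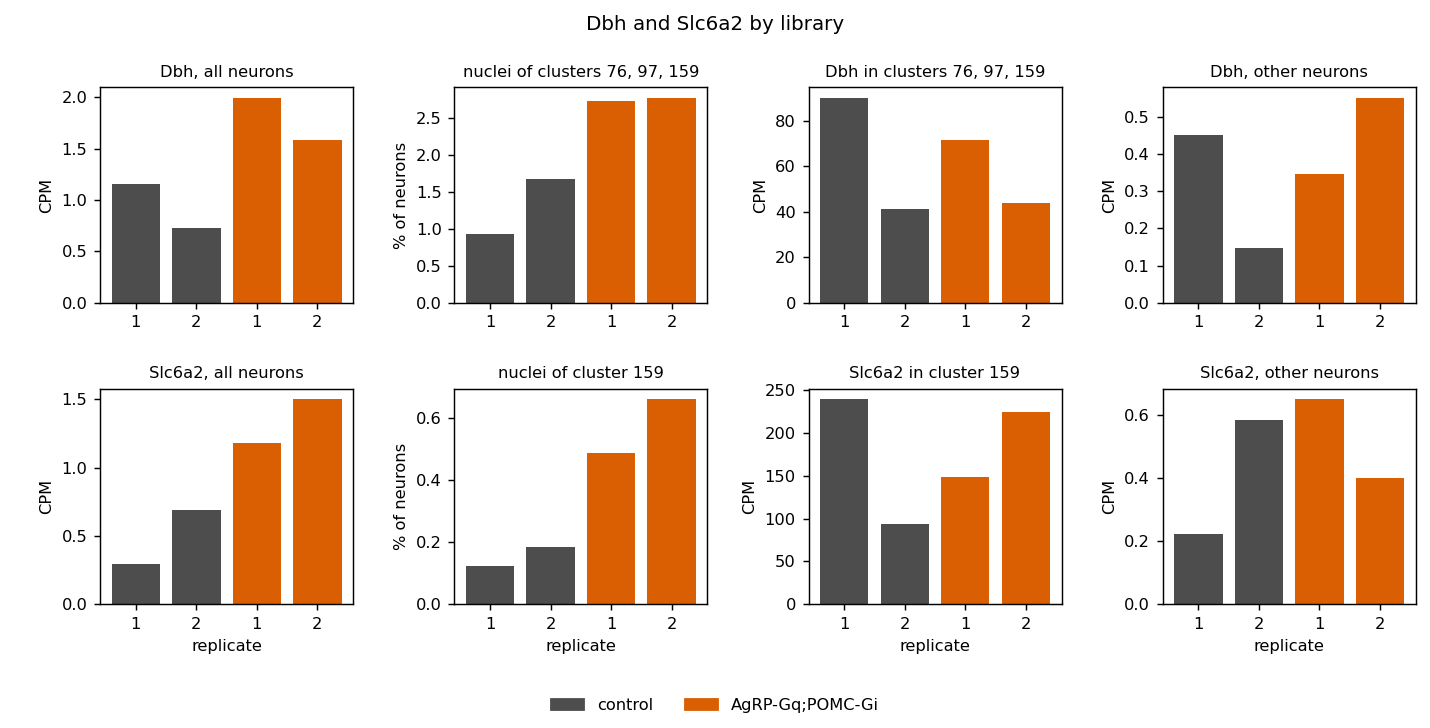
Dbh (upper) and Slc6a2 (lower) in each library. The columns give the CPM over all neurons, the percentage of neurons in the clusters that hold the gene, the CPM inside those clusters and the CPM in all other neurons, as bars from 0. The share of neurons is higher in both AgRP-Gq;POMC-Gi libraries (2.73% and 2.78% against 0.931% and 1.68% for Dbh), as it is for 24.6% of all neuronal clusters, and the CPM inside the clusters overlaps between groups.

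Within neuronal clusters 121 pairs of member and cluster could be tested, of which 53 were of Slc18a2, 48 of Maoa, 10 of Ddc, 5 of Th, 3 of Gch1 and 2 of Dbh. None was called, against 0.0162% of all pairs, and 12 had an unadjusted p under 0.05, against 4.88% of all pairs. These 12 were Slc18a2 in clusters 33, 39, 40, 78, 112 and 116 and Maoa in clusters 39, 51, 76, 97, 101 and 116. Slc18a2 had log2 fold changes of 1.24 to 1.68 in 5 of its 6 clusters and -1.47 in cluster 40, and Maoa had 1.20 to 1.52 in clusters 39, 51 and 116 and -1.67 in cluster 101. The smallest p was that of Slc18a2 in cluster 39, with a log2 fold change of 1.31 (edgeR unadjusted p = 0.00197, adjusted p = 0.680). Among the clusters that held a step, Maoa had log2 fold changes of -0.79 in cluster 76 (edgeR unadjusted p = 0.0218) and -0.94 in cluster 97 (edgeR unadjusted p = 0.0204). In cluster 97 this rested on control replicate 1, where 3 of 7 nuclei had a Maoa UMI, and without that library the log2 fold change was 0.48. Without control replicate 2 it was -1.90 (edgeR adjusted p = 3.28e-04), but that fit sets control replicate 1 alone against the other group, which then gives the spread, and it called 0.165% of all pairs. For Th the log2 fold change was -0.86 (SE 0.43) and -0.74 (SE 0.62) in clusters 76 and 97. It was 0.61 (SE 0.35) and 0.89 (SE 0.71) in clusters 63 and 146. Dbh had -0.26 (SE 0.45) in cluster 76 and 1.22 (SE 0.78) in cluster 97. None of these had an unadjusted p under 0.05. Cluster 159, with 3 nuclei in control replicate 1, was left out by the minimum of 5 nuclei per library.

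Across 13 cell types with enough nuclei, 28 pairs of member and type were tested and 0 were called, against 0.0384% of all pairs, while 5 had an unadjusted p under 0.05, against 5.68%. Beside Dbh and Slc6a2 in neurons these were Ddc in endothelial cells and oligodendrocytes and Dbh in oligodendrocytes. Ddc in oligodendrocytes had a log2 fold change of -0.60 (SE 0.17, edgeR unadjusted p = 0.00695, adjusted p = 0.627). It lay below both controls in both libraries of the other group, as did 21.5% of genes tested in that type. Its antisense partner had 1236, 636, 593 and 415 UMIs there. The call depended on the setting. With no filter on low counts the edgeR adjusted p was 0.00642, in a fit that called 0.311% of all pairs. Ddc was also called when control replicate 2 or AgRP-Gq;POMC-Gi replicate 1 was left out. Leaving out a library puts a single library in its group, so the other group gives the spread, and these fits called 0.303% and 0.703% of all pairs. Ddc in endothelial cells had a log2 fold change of -0.70 (SE 0.31, edgeR unadjusted p = 0.0375, adjusted p = 0.850). Dbh in oligodendrocytes had 4, 1, 9 and 6 UMIs, a log2 fold change of 2.11 (SE 0.70, edgeR unadjusted p = 0.0137, adjusted p = 0.723). Oligodendrocytes do not make noradrenaline. The CPM of Dbh there was higher in both AgRP-Gq;POMC-Gi libraries than in both controls, as it was for 13.5% of genes tested in that type. The part of free RNA was not tested.

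Of the other genes of the pathway 23 were tested in all neurons, 12 with a positive and 11 with a negative log2 fold change, and 0 were called. At an unadjusted p under 0.05 were Gata3 (log2 fold change -0.80) and Qdpr (log2 fold change -0.34), which encodes the enzyme that regenerates the biopterin cofactor. Across cell types 0 of 119 pairs and across clusters 0 of 569 pairs were called, with 7 and 25 pairs at an unadjusted p under 0.05, against 5.68% and 4.88% of all pairs.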

How the data were processed

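Nuclei from the posterior hindbrain were sorted and 10x 3-prime libraries were made. The authors counted UMIs with Cell Ranger 7.0.0 against GRCm38 and processed them with Seurat 4.3.0, per the submitters' processing notes, and removed low-quality nuclei and doublets. The deposited counts are raw UMI counts per gene and nucleus, and the authors' table gives each nucleus its library, quality call, cluster and cell type. Neither the use of introns and strand nor the mice per library is given in the sources used here.

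UMIs of the nuclei that passed the authors' quality call were summed per library over all neurons, over each neuronal cluster and over each cell type, and were divided by the summed UMIs to give CPM. Shares of nuclei carry exact Clopper-Pearson 95% intervals, and these and the 3-count limit for a count of 0 cover counting error only. Groups were compared with edgeR 4.0.16 (R 4.3.3, glmQLFit and glmQLFTest, TMM) for genes with at least 20 UMIs over the 4 libraries, in clusters and types with at least 5 nuclei in every library, with Benjamini-Hochberg adjustment over all genes, or over all pairs of gene and cluster or type. The number of nuclei per cluster was tested the same way with the neurons as library size. The study's mixed model over nuclei (nebula) was not run. The test was checked on simulated data. DESeq2 1.42.0, other filters and scalings, a replicate block and leaving out each library were tried as alternatives. Gene positions came from GENCODE and promoters from RefSeq, both on GRCm38, and Python 3.11.15 with numpy 2.4.6, pandas 2.3.3, scipy 1.17.1 and matplotlib 3.10.9 did the rest. The combined matrix of all libraries was not used.

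All 8 members were named in every cell type and in the clusters that hold a step, with the 3 highest clusters of each, the 3 genes most like each, and the pathway genes at 4-fold or more in a cluster holding Th or Dbh or past a test. In tests between groups, members with an unadjusted p under 0.05 were named. The members and lists were chosen with earlier results of these data known. Some pathway, marker and likeness results and cluster names are not reported here.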

Additional observations from a re-analysis of the deposited data

How the results depend on the processing

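Counts of calls moved with the setting. No member was called in all neurons in the reported fit, and 0 to 1 when a library was left out: Dbh was called without AgRP-Gq;POMC-Gi replicate 2 (log2 fold change 1.20, edgeR adjusted p = 0.0286), where 12.5% of all genes were called. In every such fit 1 group is a single library, assumed to vary like the other group, which alone gives the spread. In cell types the only member called was Ddc in oligodendrocytes, in some fits with a library left out and with no filter on low counts. With no filter 0.311% of all pairs were called. In clusters Ddc in cluster 42 was called with no filter, where 0.0467% of all pairs were called. Among the fits with a library left out, Maoa in cluster 97 was called without control replicate 2 alone. Its log2 fold change ranged from -1.90 to 0.48, the latter without control replicate 1. Of all genes, the calls in neurons went from 1 to 11 with DESeq2, 0 with a minimum of 5% of nuclei and 3 to 2559 with a library left out. Those in cell types went from 49 to 115 with DESeq2, 767 with no filter and 156 to 3164 with a library left out. Those in clusters went from 133 to 248 with adjustment within each cluster, 12 with DESeq2, 947 with no filter, 389 with a minimum of 5% of nuclei, 44 with filterByExpr and 622 to 1157 with a library left out. Other pathway genes had 0 to 2 calls in neurons, 0 to 2 in cell types and 1 to 2 in clusters with a library left out, and 2 in clusters with no filter. For nuclei per cluster there were 0 to 4 calls with a library left out. The cause of these moves was not tested.

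The labels give the replicate numbers no meaning beyond a name, and the deviations of replicate 1 of both groups from their group means correlated at r = 0.026 over 21200 genes. Choroid plexus nuclei did follow the number, with 2 and 6 in both replicates 1 against 436 and 329 in both replicates 2. With the replicate number as a block, 1 member was called in all neurons, Slc6a2 (log2 fold change 1.52, edgeR adjusted p = 0.0376). That setting called 216 genes in neurons (1.02% of those tested), 656 pairs in cell types (0.515%) and 473 in clusters (0.0575%).

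Of 246 alternative values of 29 log2 fold changes, 11 reversed, all with a library left out. In all neurons the range over libraries left out was -0.10 to 0.89 for Th, -0.28 to 0.53 for Ddc (-0.20 without AgRP-Gq;POMC-Gi replicate 1) and -0.12 to 0.38 for Slc18a2 (-0.09 without AgRP-Gq;POMC-Gi replicate 1). For the number of nuclei it was -1.10 to 0.97 in cluster 63 (-0.19 without control replicate 2), -2.01 to 0.25 in cluster 167 and -0.27 to 1.00 in cluster 168 (-0.06 without AgRP-Gq;POMC-Gi replicate 2). The 20 pairs of cluster and step were 6 with nuclei thinned. Depth limits Pnmt, and the few nuclei of control replicate 1 in clusters 159 and 97 limit their group comparisons.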
